A study of Homo sapiens with 4 samples.

Results

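PC14 cells sorted as high for E-cadherin and high for CD133 (E+CD133+) were set apart from the other 3 sorted subpopulations of the same line by 144 genes. A gene belonged to this set when its array signal in E+CD133+ cells was at least 2-fold above, or at least 2-fold below, the signal on each of the other 3 arrays. Signals under the median probe set of an array, called its floor, were first raised to that floor. Of 14083 genes above the floor on at least 1 array, 72 were higher in E+CD133+ cells than on each other array, which is 0.511% of them. Another 72 genes were lower than on each other array, also 0.511%. The array held 19775 genes with a symbol. These values chose the genes, so they are given as a description, and with 1 array per subpopulation no difference has a replicate check.

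PC14 is an established human non-small-cell lung cancer line, cultured without any added treatment that the labels name. The 4 groups were sorted by fluorescence, first on E-cadherin and then on CD133, into E+CD133+, E-CD133+, E+CD133- and E-CD133- cells. Here E- and CD133- mean low rather than absent. CD133 was read through a lentiviral reporter carried by the sorted cells, a vector with GFP under the human CD133 P1 promoter, so the sort followed that promoter and not the surface protein. All 4 groups come from a single line, and each gave total RNA for 1 Affymetrix array.

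E-cadherin is the adhesion protein that joins epithelial cells to each other, and its loss marks cells that take on a mesenchymal form. CD133, encoded by PROM1, is a membrane glycoprotein used to enrich stem-like cancer cells in lung and other tumours. SOX2 is a transcription factor of the HMG-box family that keeps stem cells undifferentiated, acts in the formation of the airway epithelium, and is amplified in some lung cancers.

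The sort could be checked for E-cadherin but not for CD133. CDH1, the E-cadherin gene, read 5548 in E+CD133+ cells, against 347 in E-CD133+, 3546 in E+CD133- and 527.8 in E-CD133- cells. PROM1 was under the floor of each array, with 12.1 in E+CD133+ cells and 10.3, 29.7 and 4.79 in E-CD133+, E+CD133- and E-CD133- cells. The epithelial marker EPCAM read 12326 in E+CD133+ cells, with 6554, 10717 and 3760 in E-CD133+, E+CD133- and E-CD133- cells. VIM, a mesenchymal filament gene, was nevertheless bright in E+CD133+ cells at 12448, against 20200 in E-CD133+, 1740 in E+CD133- and 12938 in E-CD133- cells. ZEB1, a repressor of CDH1, read 168 in E+CD133+ cells, against 1301 in E-CD133+, 64.8 in E+CD133- and 1056 in E-CD133- cells. Other markers did not all follow the sort. The epithelial keratin KRT18 read 10295 in E+CD133+ cells, against 7605 in E-CD133+, 15306 in E+CD133- and 10434 in E-CD133- cells. KRT8 read 1334, against 1081, 1493 and 406 in the same order. The mesenchymal gene FN1 was dim, at 91.5, against 69.3, 94.8 and 42.6 in that order. KRT19 and the mesenchymal cadherin CDH2 were under the floor on each array. Of 14 markers of leukocytes, endothelium, fibroblasts and red cells on the array, 8 were above the floor on at least 1 array and 0 of these were in the set. Their summed signal was 4477 in E+CD133+ cells, against 5516 in E-CD133+, 2637 in E+CD133- and 2725 in E-CD133- cells. Within that list CD14, VWF, CDH5, KDR, LYZ and PDGFRB were under the floor everywhere. By highest signal, COL1A1, LUM and PTPRC were the brightest of the 8. The fibroblast gene COL1A1 read 2087 in E+CD133+ cells, against 1935 in E-CD133+, 1636 in E+CD133- and 1614 in E-CD133- cells. LUM, also of fibroblasts, read 626, against 1390, 228 and 131 in the same order. The leukocyte gene PTPRC read 1246, against 1102, 346 and 505 in that order. The part of these markers in the differences below was not tested. The floor was 53.7 in E+CD133+ cells and 57.0 to 60.3 on the other arrays, and 12446 genes lay above it in E+CD133+ cells, against 12309 to 12459 on the others. The 3' over 5' ratio of actin was 1.59 in E+CD133+ cells and 1.53 to 1.78 on the others.

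The other subpopulations gave a scale for these counts. By the same rule 329 genes set E-CD133+ cells apart (244 higher, 1.73%, and 85 lower, 0.604%). For E+CD133- cells there were 142 (38 higher, 0.27%, and 104 lower, 0.738%), and for E-CD133- cells 228 (67 higher, 0.476%, and 161 lower, 1.14%). The number for E+CD133+ cells was therefore close to the lowest of the 4, and its split between higher and lower genes was even. Smallest folds were modest. The median over the 72 higher genes was 2.36-fold against the nearest of the other arrays, and 19 genes passed 3-fold. Over the 72 lower genes the median was 2.29-fold, and 10 genes passed 3-fold. In the scatter of the E+CD133+ signal against the nearest other array, SOX2 stood far from every other lower gene.

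**Figure D1:**
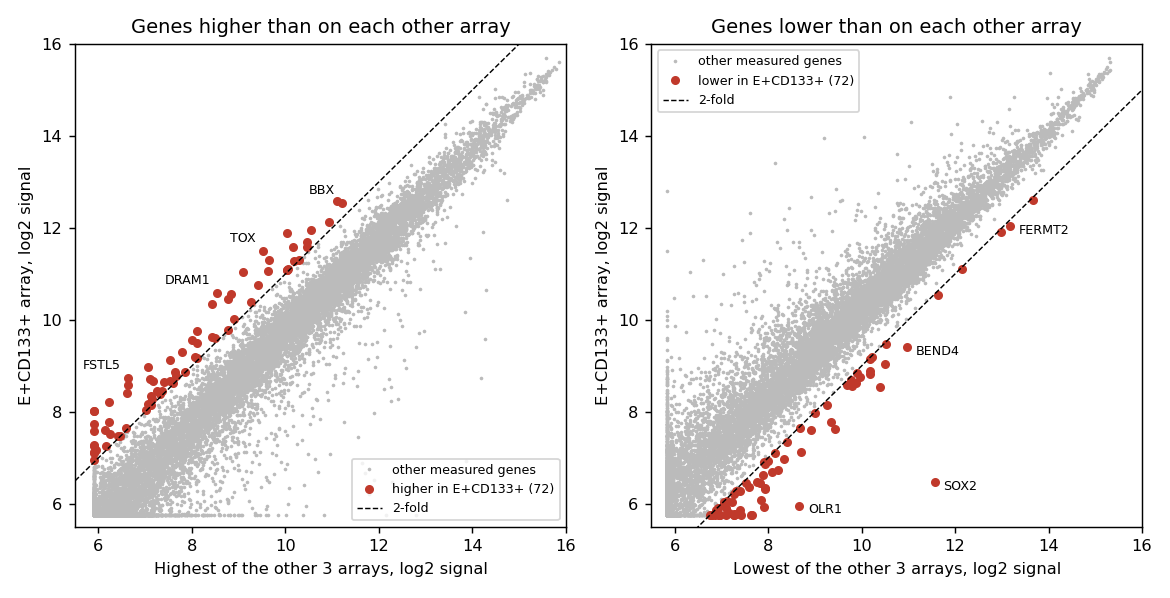
Log2 signal in E+CD133+ cells (vertical axis) against the highest (left panel) or the lowest (right panel) of the other 3 arrays, for 14083 measured genes with signals raised to the floor. Red points are the 72 higher and the 72 lower genes, the dashed line marks a 2-fold difference, and SOX2 lies 34.2-fold below its nearest array.

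**Figure D2:**
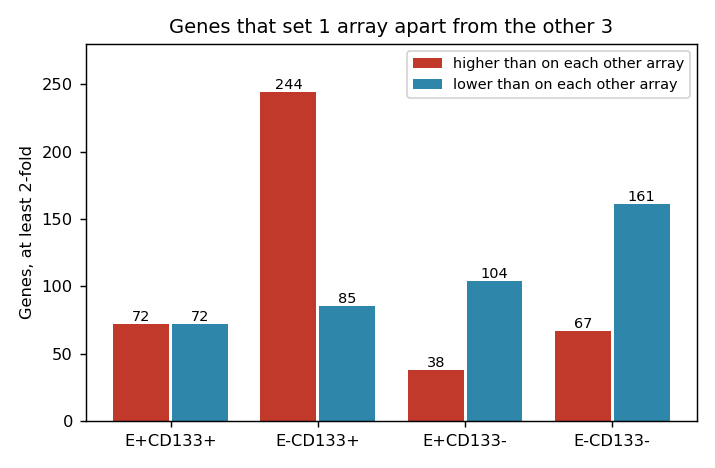
Number of genes at least 2-fold higher or lower on 1 array than on each of the other 3, for each of the 4 subpopulations. E+CD133+ cells had 72 in each direction, E-CD133+ cells had the most with 244 higher, and E+CD133- cells had the fewest higher genes with 38.

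With signals raised to the floor, SOX2 had the largest smallest difference of the 144 genes, that is, the largest difference from the nearest of the other arrays. Genes under the floor in E+CD133+ cells have only a bound and cannot be ranked against it. Against single arrays other genes went further, as MME was at least 84.4-fold below E-CD133+ cells, where SOX2 was 56.7-fold below. Its signal was 88.3 in E+CD133+ cells, against 5006 in E-CD133+, 3021 in E+CD133- and 4262 in E-CD133- cells. The E+CD133+ array was thus alone in being low, at 34.2-fold below the nearest array, while the other 3 lay within 2-fold of each other. In a bulk extract, fewer cells with SOX2 transcript and less of it per cell cannot be told apart. A further probe set of the gene, which the choice did not use, read 42.0 in E+CD133+ cells, below the floor, against 403.8 in E-CD133+, 324 in E+CD133- and 493 in E-CD133- cells. Another, dim on every array, read 29.0 in E+CD133+, 56.5 in E-CD133+, 66.0 in E+CD133- and 12.9 in E-CD133- cells. It was above the floor in E+CD133- cells alone and could not separate the other arrays. No other member of the SOX family was in the set, with 1 of 10 measured SOX genes lower on this array than on each other. SOX9, which marks distal lung progenitors, read 207 in E+CD133+ cells, against 317 in E-CD133+, 87.2 in E+CD133- and 88.6 in E-CD133- cells. SOX4 was bright on every array, with 4809 in E+CD133+ cells and 6867, 4411 and 4181 in E-CD133+, E+CD133- and E-CD133- cells. Genes next to SOX2 on chromosome 3 were not low in E+CD133+ cells. DNAJC19, on one side of it, read 3316 in E+CD133+ cells, against 2772 in E-CD133+, 3119 in E+CD133- and 2699 in E-CD133- cells, and ATP11B, on the other side, read 754 in E+CD133+ cells, against 963 in E-CD133+, 692 in E+CD133- and 845 in E-CD133- cells. Other genes of the stem-like list did not share the pattern, since of its 18 measured genes SOX2 was the 1 lower gene and the R-spondin receptor LGR4 the 1 higher gene. The SOX2 promoter window is shown because the gene had that difference. It runs from 250 bases before to 50 after the start, on the plus strand at chr3:181711675-181711974 (RefSeq, GRCh38.p14). Capitals mark ACAAAG, a core bound by HMG-box factors, and GGGCGG, the box bound by SP1-like factors, each on either strand.
SOX2 promoter: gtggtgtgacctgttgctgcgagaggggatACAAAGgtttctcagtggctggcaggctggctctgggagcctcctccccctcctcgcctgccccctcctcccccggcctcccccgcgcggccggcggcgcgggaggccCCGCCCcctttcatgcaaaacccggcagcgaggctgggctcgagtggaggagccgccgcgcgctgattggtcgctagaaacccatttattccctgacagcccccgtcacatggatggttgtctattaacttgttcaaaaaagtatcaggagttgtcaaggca

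The basement membrane collagen genes COL4A1 and COL4A2 were lower in E+CD133+ cells than anywhere else. Their chains assemble together into the sheet under epithelium. COL4A1 read 198 in E+CD133+ cells, against 758 in E-CD133+, 937 in E+CD133- and 694 in E-CD133- cells, 3.50-fold below the nearest. COL4A2 read 61.0 in E+CD133+ cells, against 362 in E-CD133+, 289 in E+CD133- and 241 in E-CD133- cells, 3.94-fold below the nearest. On both genes the other 3 arrays lay within 2-fold of each other. A dimmer probe set of COL4A1 read 9.38 in E+CD133+ cells, 141 in E-CD133+, 136 in E+CD133- and 22.3 in E-CD133- cells, so it fell under the floor in E+CD133+ and in E-CD133- cells and could not separate those 2. The related chains did not follow, as COL4A5 read 1808 in E+CD133+ cells, against 1724 in E-CD133+, 1149 in E+CD133- and 1000.1 in E-CD133- cells. The 2 genes lie head to head on chromosome 13 and are transcribed in opposite directions, so their promoter windows, shown here because the genes were low together, share 226 bases. The window of COL4A1 is chr13:110307108-110307407 on the minus strand and that of COL4A2 is chr13:110307034-110307333 on the plus strand (RefSeq, GRCh38.p14). Capitals mark GGGCGG on either strand, found 2 times in the COL4A1 window and 1 time in that of COL4A2.
COL4A1 promoter: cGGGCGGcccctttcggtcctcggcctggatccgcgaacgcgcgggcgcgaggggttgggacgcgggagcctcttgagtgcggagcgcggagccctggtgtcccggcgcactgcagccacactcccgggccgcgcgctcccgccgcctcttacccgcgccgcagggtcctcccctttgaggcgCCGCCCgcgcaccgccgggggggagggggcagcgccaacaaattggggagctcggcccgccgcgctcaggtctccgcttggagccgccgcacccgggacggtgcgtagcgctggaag
COL4A2 promoter: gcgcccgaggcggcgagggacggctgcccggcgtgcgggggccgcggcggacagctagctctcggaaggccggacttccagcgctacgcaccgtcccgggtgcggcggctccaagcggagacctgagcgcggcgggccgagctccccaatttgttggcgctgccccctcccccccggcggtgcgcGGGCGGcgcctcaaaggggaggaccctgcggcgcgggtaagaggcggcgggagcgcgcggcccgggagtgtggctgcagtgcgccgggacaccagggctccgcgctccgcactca

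Beyond these collagens, matrix and attachment genes were found in both directions. On the list of 35 measured extracellular matrix genes, 0 were higher and 3 lower, the third being THBS1. Matrix genes that are not on that list were among the 72 higher genes. COL9A3, a cartilage collagen chain, read 310.1 in E+CD133+ cells and 142 in E-CD133+ cells, and was under the floor in E+CD133- (7.10) and E-CD133- cells (14.5). FBN3, a fibrillin, read 155 in E+CD133+ cells and was under the floor on the others, at least 2.57-fold higher. THBS1, a matrix glycoprotein that activates latent TGF-beta, read 58.1 in E+CD133+ cells, against 168 in E-CD133+, 379 in E+CD133- and 284 in E-CD133- cells. The list as a whole was not low against every array, with a median log2 difference of -0.44 against E-CD133+, 0.36 against E+CD133- and 0.46 against E-CD133- cells, where all measured genes had medians of 0. FAT1, a giant atypical cadherin, read 529 in E+CD133+ cells, against 1950.2 in E-CD133+, 1453 in E+CD133- and 1714 in E-CD133- cells. PCDH17, a protocadherin, read 138 in E+CD133+ cells, against 282 in E-CD133+, 457 in E+CD133- and 840.4 in E-CD133- cells. FERMT2, which activates integrins, was among the brightest lower genes, at 4196 in E+CD133+ cells, against 9263 in E-CD133+, 12784 in E+CD133- and 11765 in E-CD133- cells. SERPINE2, a secreted protease inhibitor, read 65.4 in E+CD133+ cells, against 187 in E-CD133+, 149 in E+CD133- and 275 in E-CD133- cells. Of 17 measured YAP target and caveola genes, 2 were lower and 0 higher, and the list's median log2 differences were -0.41, -0.44 and -0.42 against E-CD133+, E+CD133- and E-CD133- cells. CCN2, a matricellular YAP target, read 121 in E+CD133+ cells, against 254 in E-CD133+, 416 in E+CD133- and 464 in E-CD133- cells. CRIM1, a membrane protein that binds BMPs, read 98.9 in E+CD133+ cells, against 324 in E-CD133+, 306 in E+CD133- and 236 in E-CD133- cells. Its 2 other probe sets above the floor were also more than 2-fold lower than on each other array.

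Genes of Wnt and receptor kinase signalling were found in both directions. DKK1, the secreted inhibitor of Wnt co-receptors, read 375 in E+CD133+ cells, against 2289 in E-CD133+, 1353 in E+CD133- and 4879 in E-CD133- cells, 3.61-fold below the nearest. FZD1, a Frizzled receptor of Wnt ligands, read 116 in E+CD133+ cells, against 245 in E-CD133+, 282 in E+CD133- and 692 in E-CD133- cells. LGR4, the R-spondin receptor that strengthens Wnt signals, went the other way, at 3813 in E+CD133+ cells, against 774 in E-CD133+, 1049 in E+CD133- and 194 in E-CD133- cells. These were the 3 members among 28 measured Wnt pathway genes, whose median log2 differences were 0, 0.12 and -0.02 against E-CD133+, E+CD133- and E-CD133- cells. NRG1, a ligand of ERBB receptors, lay below the floor in E+CD133+ cells at 32.6, against 233 in E-CD133+, 202 in E+CD133- and 339.6 in E-CD133- cells, at least 3.76-fold lower. RET, a receptor kinase, barely passed, at 60.1 in E+CD133+ cells, against 122 in E-CD133+, 143 in E+CD133- and 133 in E-CD133- cells. The receptor kinase EPHA3, which binds ephrins, was higher, at 753 in E+CD133+ cells, against 257 in E-CD133+ cells and signals under the floor in E+CD133- (4.72) and E-CD133- cells (5.00).

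BMP and TGF-beta genes were found in both directions. The BMP antagonist NOG read 55.1 in E+CD133+ cells, against 209.9 in E-CD133+, 154 in E+CD133- and 228 in E-CD133- cells. CHRDL1, another secreted BMP antagonist, was higher, at 1299.8 in E+CD133+ cells, against 331 in E-CD133+, 344 in E+CD133- and 126 in E-CD133- cells. SMAD1, which carries BMP signals to the nucleus, read 584 in E+CD133+ cells, against 1840 in E-CD133+, 1195 in E+CD133- and 2163 in E-CD133- cells. SKIL, a repressor of SMAD activity, read 569 in E+CD133+ cells, against 1164 in E-CD133+, 3326 in E+CD133- and 3493 in E-CD133- cells. On the list of 26 measured genes of this pathway, 2 were lower (NOG and SKIL) and 0 higher.

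Surface proteins with large differences among the lower genes included OLR1 and MME. OLR1, the receptor for oxidised low-density lipoprotein, followed SOX2 by smallest difference among the lower genes above the floor on all 4 arrays. It read 62.2 in E+CD133+ cells, against 1381 in E-CD133+, 824 in E+CD133- and 405 in E-CD133- cells, 6.52-fold below the nearest. MME, the membrane peptidase neprilysin, read 12.8 in E+CD133+ cells, below the floor, against 4532 in E-CD133+, 199 in E+CD133- and 673 in E-CD133- cells, at least 3.70-fold lower than the nearest. Its other probe set above the floor read 10.1 in E+CD133+ cells and 3415 in E-CD133+ cells. SLC2A3, a glucose transporter, read 6216 in E+CD133+ cells, against 13098 in E-CD133+, 27485 in E+CD133- and 21422 in E-CD133- cells, and was the 1 member among 31 measured hypoxia and glycolysis genes. Signalling proteins inside the cell completed the top of the lower genes. GRB10, an adaptor of insulin-type receptors, read 81.6 in E+CD133+ cells, against 244 in E-CD133+, 974 in E+CD133- and 1074 in E-CD133- cells. RGCC, a regulator of the cell cycle, read 219 in E+CD133+ cells, against 654 in E-CD133+, 1494 in E+CD133- and 2455 in E-CD133- cells. TRIM9, a ubiquitin ligase known from neurons, read 80.1 in E+CD133+ cells, against 244 in E-CD133+, 343 in E+CD133- and 562 in E-CD133- cells. For these 3 genes the nearest array was E-CD133+, so both CD133-high arrays were below both CD133-low arrays. NANOS1, an RNA-binding repressor of translation, instead read 141 in E+CD133+ cells, against 419 in E-CD133+, 570.0 in E+CD133- and 491 in E-CD133- cells, with the other 3 arrays close together. The rest of the 15 lower genes with the largest smallest-fold were TMEM158, BEND4 and LASP1NB, at 2.90-fold to 3.21-fold below the nearest array, the value of TMEM158 being a lower bound.

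**Figure D3:**
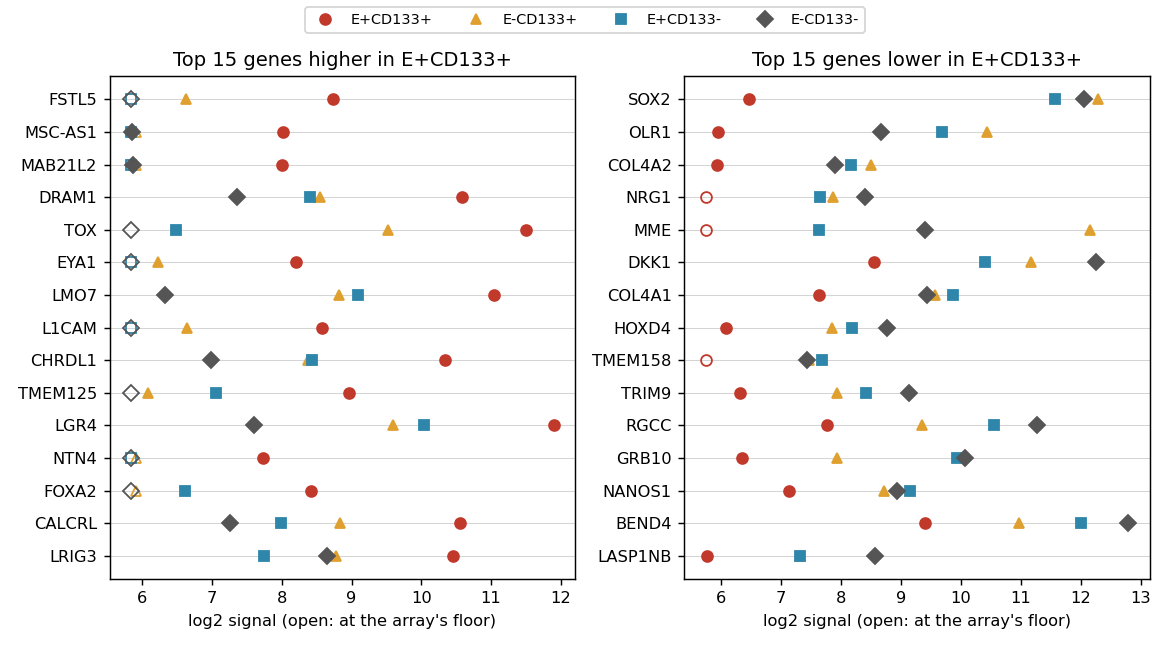
Log2 signal, raised to the floor, on each of the 4 arrays for the 15 higher and the 15 lower genes with the largest smallest difference from the other 3 arrays. E+CD133+ points lie at the right of every higher gene and at the left of every lower gene, and SOX2 has the widest gap.

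In the HOXD cluster 3 homeobox genes were lower in E+CD133+ cells than on each other array. HOX genes encode transcription factors that specify position along the body, and the HOXD cluster is on chromosome 2. HOXD4 read 68.2 in E+CD133+ cells, against 230.0 in E-CD133+, 293 in E+CD133- and 434 in E-CD133- cells, 3.37-fold below the nearest. HOXD8 read 435 in E+CD133+ cells, against 1094 in E-CD133+, 996 in E+CD133- and 1014 in E-CD133- cells. HOXD10 read 377 in E+CD133+ cells, against 892 in E-CD133+, 2301 in E+CD133- and 2971 in E-CD133- cells. The antisense transcript HOXD-AS2, adjacent to HOXD8 and HOXD4 among the measured genes, read 195 in E+CD133+ cells, against 484 in E-CD133+, 558 in E+CD133- and 539 in E-CD133- cells. Whether the probes of HOXD-AS2 separate it from overlapping HOXD transcripts was not tested. For HOXD4 and HOXD10 a further probe set each was also more than 2-fold lower than on each other array. Both were under the floor in E+CD133+ cells, at 43.3 for HOXD4 and 45.7 for HOXD10. A dimmer probe set of HOXD10 was above the floor in E-CD133- cells alone, at 148, and could not separate the other arrays. The other measured HOXD genes lay within 2-fold of E-CD133+ cells. HOXD13 read 355 in E+CD133+ cells, against 326 in E-CD133+, 1004 in E+CD133- and 988 in E-CD133- cells. Of 25 measured HOX genes in all, 3 were lower than on each other array and 0 higher. By single arrays, 4 were at least 2-fold below E-CD133+, 16 below E+CD133- and 19 below E-CD133- cells. Of all 14083 measured genes, 536, 456 and 510 were that far below the same arrays in that order. The HOXB genes showed the difference between CD133-high and CD133-low arrays, as with HOXB6 at 102 in E+CD133+ cells, against 177 in E-CD133+, 3319 in E+CD133- and 2959 in E-CD133- cells.

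**Figure D4:**
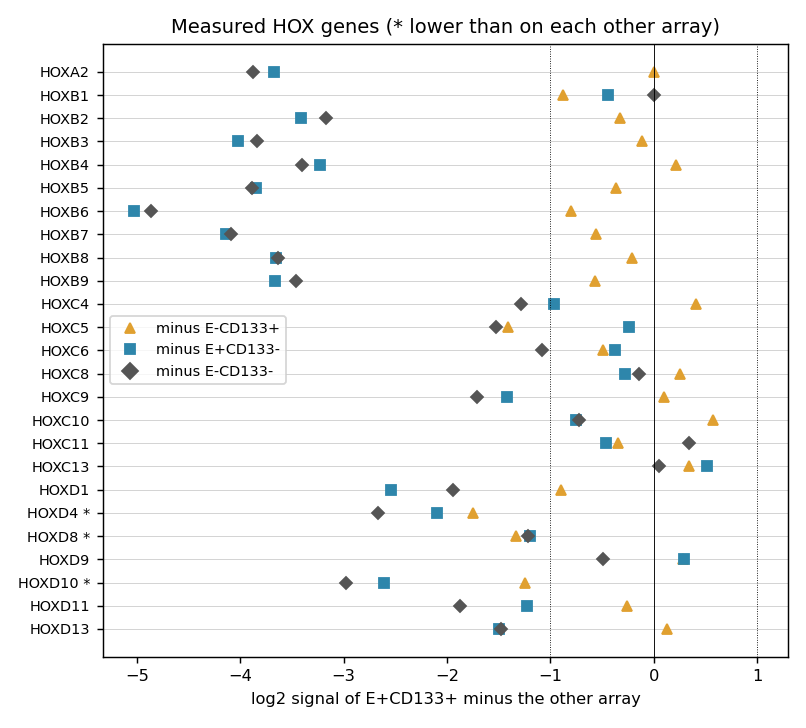
Log2 difference of E+CD133+ cells from each other array for 25 measured HOX genes, with dotted lines at a 2-fold difference and an asterisk at the 3 genes lower than on each other array. HOXB2 to HOXB9 lie within 2-fold of E-CD133+ cells and far below both CD133-low arrays, whereas HOXD4, HOXD8 and HOXD10 lie below all 3.

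TOX, EYA1 and FOXA2, among the 15 higher genes with the largest smallest difference, encode transcription factors or a partner of them. TOX, an HMG-box protein known from T-cell development, read 2899 in E+CD133+ cells, against 735 in E-CD133+, 89.6 in E+CD133- and 27.6 in E-CD133- cells, 3.94-fold above the nearest. Its divergent transcript TOX-DT read 555 in E+CD133+ cells and 186 in E-CD133+ cells, and was under the floor in E+CD133- and E-CD133- cells. EYA1, a coactivator and phosphatase that acts in organ formation, read 295 in E+CD133+ cells, against 74.9 in E-CD133+, 18.7 in E+CD133- and 8.77 in E-CD133- cells. For TOX and EYA1 the CD133-high arrays were the 2 brightest. FOXA2, a forkhead factor of endoderm and lung epithelium, instead read 340.4 in E+CD133+ cells, against 7.16 in E-CD133+, 97.4 in E+CD133- and 17.0 in E-CD133- cells, with the E-cadherin-high arrays as the 2 above the floor. It was the 1 higher gene among 14 measured lung lineage genes, and GATA3 was the 1 lower gene. GATA3 read 73.7 in E+CD133+ cells, against 154 in E-CD133+, 1470 in E+CD133- and 3523 in E-CD133- cells, and its other probe sets lay under the floor on both CD133-high arrays. Other such genes lay further down the order. FOXP2, a forkhead repressor also found in lung epithelium, read 2127 in E+CD133+ cells, against 258 in E-CD133+, 795 in E+CD133- and 510.4 in E-CD133- cells. MDFIC, which binds and restrains other transcription factors and lies next to FOXP2 on chromosome 7, read 3947 in E+CD133+ cells, against 339 in E-CD133+, 1495 in E+CD133- and 1406 in E-CD133- cells. BBX, an HMG-box gene, read 5929 in E+CD133+ cells, against 1738 in E-CD133+, 2370 in E+CD133- and 1784 in E-CD133- cells, and 4 of its 5 other probe sets above the floor passed 2-fold against each other array. THRB, the beta receptor of thyroid hormone, read 871 in E+CD133+ cells, against 101 in E-CD133+, 276 in E+CD133- and 146.5 in E-CD133- cells.

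The lists of neuronal, guidance, epithelial and mucin genes each held 2 higher genes and 0 lower ones. L1CAM, an adhesion molecule of growing axons, read 383 in E+CD133+ cells, against 99.7 in E-CD133+, 54.3 in E+CD133- and 4.47 in E-CD133- cells. NRXN3, a presynaptic adhesion protein, read 349 in E+CD133+ cells, against 142 in E-CD133+, 164 in E+CD133- and 103 in E-CD133- cells. These were the 2 members among 30 measured neuronal and synaptic genes. NTN4, a netrin of basement membranes, read 212 in E+CD133+ cells and lay below the floor on the other arrays, at least 3.52-fold higher. UNC5C, a netrin receptor, read 2187 in E+CD133+ cells, against 1044 in E-CD133+, 929 in E+CD133- and 376 in E-CD133- cells. NTN4 and UNC5C were the 2 members among 22 measured guidance genes. LMO7, a protein of epithelial junctions, read 2109 in E+CD133+ cells, against 450.0 in E-CD133+, 546 in E+CD133- and 80.4 in E-CD133- cells. The tight junction gene CLDN3 read 138 in E+CD133+ cells and lay below the floor on the other arrays, at least 2.29-fold higher. MUC1, a membrane mucin of lung epithelium, read 2481 in E+CD133+ cells, against 949 in E-CD133+, 1168 in E+CD133- and 241 in E-CD133- cells. CLDN3 and MUC1 were the 2 members among 30 measured epithelial genes, and that list's median log2 differences were 0.58, 0.12 and 0.53 against E-CD133+, E+CD133- and E-CD133- cells. AGR3, a secretory-pathway protein of ciliated and glandular cells, read 1343 in E+CD133+ cells, against 443 in E-CD133+, 618 in E+CD133- and 178 in E-CD133- cells.

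Receptors, secreted factors and enzymes made up most of the remaining named higher genes. FSTL5, a secreted follistatin-like protein, was 4.32-fold above its nearest array. It read 428 in E+CD133+ cells and 98.9 in E-CD133+ cells and lay below the floor in E+CD133- (5.69) and E-CD133- cells (2.17). DRAM1, a lysosomal protein induced by p53, read 1539 in E+CD133+ cells, against 374 in E-CD133+, 339.9 in E+CD133- and 164 in E-CD133- cells. CALCRL, the receptor for adrenomedullin and related peptides, read 1508 in E+CD133+ cells, against 457 in E-CD133+, 254 in E+CD133- and 154 in E-CD133- cells. LRIG3, a membrane protein with leucine-rich repeats, read 1401 in E+CD133+ cells, against 439 in E-CD133+, 214 in E+CD133- and 400.2 in E-CD133- cells. SGMS2, which makes sphingomyelin, read 6157 in E+CD133+ cells, against 2187 in E-CD133+, 1940 in E+CD133- and 743 in E-CD133- cells. UGT8, which makes galactosylceramide, read 628 in E+CD133+ cells, against 168 in E-CD133+, 221 in E+CD133- and 127 in E-CD133- cells. Another enzyme of sphingolipids, the sphingosine kinase SPHK1, was among the lower genes, at 714 in E+CD133+ cells, against 1480 in E-CD133+, 3335 in E+CD133- and 2492 in E-CD133- cells. MVD, an enzyme of the mevalonate pathway, read 285 in E+CD133+ cells, against 139 in E-CD133+, 126 in E+CD133- and 26.5 in E-CD133- cells. It was the 1 member among 21 measured lipid and cholesterol genes, whose median log2 differences were -0.09 against E-CD133+, 0.72 against E+CD133- and 0.84 against E-CD133- cells. The potassium channel subunit KCNV1 was the 1 member among 32 measured channel genes, at 264 in E+CD133+ cells, against 129 in E-CD133+, 67.6 in E+CD133- and 29.3 in E-CD133- cells. MSC-AS1, MAB21L2 and TMEM125 were the other genes among the 15 with the largest smallest-fold, at 3.77-fold to 4.29-fold above the nearest array, the values of MSC-AS1 and MAB21L2 being lower bounds.

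Most of the 144 genes were on none of the 40 gene lists. Lists held 12 of the 72 higher and 20 of the 72 lower genes, 10 lists had a higher gene, 13 had a lower gene and 21 had neither. Lists with no member in either direction included keratins (4 measured), transition transcription factors (9), the Notch pathway (24), ERK feedback (19), immediate early and stress genes (27), interferon response (18), antigen presentation (17) and the cell cycle (44). They also included drug transport (24), integrins and laminins (18), cytokines (25), complement and coagulation (13), S100 genes (13), cancer-testis antigens (17), metal handling (19), and retinoid and steroid genes (17). The last of them were annexins and galectins (16), death receptors (23), other cell types (8), housekeeping genes (14) and ribosomal proteins (31). Each direction took 0.511% of all measured genes, so lists this short would often hold no member. A list without a member was therefore not shown to be unchanged. Of the 27 immediate early and stress genes, 8 were at least 2-fold below E-CD133+ cells and 0 above. Against E-CD133- cells 7 were that far above and 0 below. Of the 25 measured mesenchymal genes, CCN2 was the 1 lower gene and 0 were higher. Of the 30 measured matrix proteases and inhibitors, SERPINE2 was the 1 lower gene. FAT1 and PCDH17 were the 2 lower genes of 20 measured cadherins, and NRG1 and RET were the 2 lower of 50 measured receptor kinases and ligands. The cancer-testis gene CT83, which the list of such genes does not hold, was among the higher genes, at 792 in E+CD133+ cells, against 346 in E-CD133+, 296 in E+CD133- and 317 in E-CD133- cells. MUC1 and AGR3 were the 2 higher genes of 20 measured mucins and secreted epithelial products.

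Counts at the floor differed between higher and lower genes partly by the rule. A lower gene cannot lie at the floor of another array, whereas a higher gene can. Of the 72 higher genes, 7 lay at the floor on all other 3 arrays, 24 on 1 or 2 of them, and 41 lay above the floor on all 4 arrays. Of the 72 lower genes, 12 were at the floor in E+CD133+ cells and 60 were above it on all 4 arrays. Of all 14083 measured genes, 294 lay at the floor on all other 3 arrays and 2717 on 1 or 2 of them. Of the same genes 1637 were at the floor in E+CD133+ cells and 10891 were above it on all 4 arrays. The median signal in E+CD133+ cells was 467 for the higher genes, 88.5 for the lower genes and 517 for all measured genes. The nearest array was most often E-CD133+, for 41 higher and 35 lower genes, then E+CD133- for 26 and 24, and E-CD133- for 5 and 13. The other 3 arrays lay within 2-fold of each other for 35 of the 72 higher and 46 of the 72 lower genes. Among all 14083 measured genes they did so for 11364, a larger share.

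Higher genes often carried the same direction in the pairs of arrays without E+CD133+ cells. In E-cadherin-low cells, CD133-high was at least 2-fold above CD133-low for 26 of the 72 higher genes (36.1%), 7 of the 72 lower genes (9.72%) and 8.11% of all measured genes. In the same pair it was at least 2-fold below for 1 higher gene, for 12 lower genes (16.7%) and for 4.27% of all measured genes. In CD133-low cells, E-cadherin-high was at least 2-fold above E-cadherin-low for 19 higher genes (26.4%), 1 lower gene and 2.87% of all measured genes. It was at least 2-fold below for 1 higher gene, for 8 lower genes (11.1%) and for 2.63% of all measured genes. Both pairs went up together for 14 higher genes, LGR4, MUC1, AGR3, CHRDL1 and LMO7 among them, and for 1 lower gene, OLR1. Both went down for 5 lower genes, among them DKK1, and for 0 higher genes. Of all 14083 measured genes, 185 went up in both pairs and 92 went down in both. All 4 arrays entered the choice of the genes, so these shares are descriptions.

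The departure from additivity measures how far E+CD133+ cells lay from the sum of the 2 separate marker differences on the log2 scale, as E+CD133+ minus E-CD133+ minus E+CD133- plus E-CD133-. Its sign partly follows from the choice of genes, because the array they were chosen on enters the sum. It was 1 or more for 42 of the 72 higher genes and within 1 for 30, with a median of 1.12. It was -1 or less for 49 of the 72 lower genes and within 1 for 23, with a median of -1.36, where all measured genes had a median of -0.05. Over all 14083 measured genes it was 1 or more for 689, -1 or less for 998 and within 1 for 12396. LGR4 was close to additive at -0.13, and so was MVD at -0.11. With signals raised to the floor, MDFIC had the largest departure of the higher genes at 3.45, followed by TMEM74 at 2.69, LRIG3 at 2.58, FOXP2 at 2.41 and SLAIN1 at 2.36. Among the lower genes OLR1 had a departure of -5.50 and SOX2 of -5.33. MME had -4.64 and TMEM52B -4.13, which are bounds because E+CD133+ cells were under the floor, so the 4 genes have no settled order. For TMEM52B, which is next to OLR1 on chromosome 12, E+CD133+ cells read 21.5, below the floor, against 1321 in E-CD133+, 153 in E+CD133- and 216 in E-CD133- cells. SKIDA1 read 3.56 in E+CD133+ cells, also below the floor, against 669 in E-CD133+, 153 in E+CD133- and 156.5 in E-CD133- cells. Both genes, like MME and OLR1, were brightest in E-CD133+ cells and dimmest in E+CD133+ cells, so the 2 CD133-high arrays held the extremes.

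**Figure D5:**
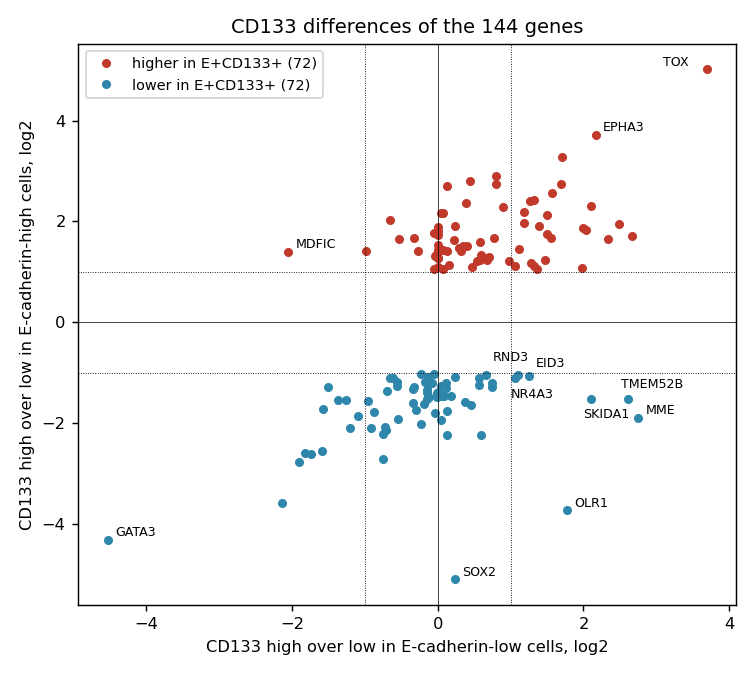
Log2 difference of CD133-high over CD133-low cells within E-cadherin-high cells (vertical axis) against the same difference within E-cadherin-low cells (horizontal axis) for the 72 higher and the 72 lower genes, with dotted lines at 2-fold. TOX and EPHA3 lie up on both axes, GATA3 down on both, SOX2 is near 0 in E-cadherin-low cells, and OLR1 and MME lie in opposite directions.

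Other probe sets of the same genes gave a readout that the choice did not use, although on the same arrays. Among the 72 higher genes, 30 had a further probe set above the floor on at least 1 array. For 26 of the 30 at least 1 such probe set was higher in E+CD133+ cells than on each other array, and for 12 of them at least 1 passed 2-fold against each. Those without one were ATP6AP1L, PDZRN3, RNLS and RORA. Of the 53 probe sets involved, 43 were higher than on each other array and 18 passed 2-fold. Among the 72 lower genes, 36 had a further probe set above the floor, 20 had at least 1 that was lower than on each other array, and 14 had at least 1 that passed 2-fold. Of their 59 probe sets, 34 were lower than on each other array and 18 passed. The 16 lower genes with none included COL4A1, COL4A2, THBS1, NRG1, GATA3 and FZD1. Probe sets that were at the floor both in E+CD133+ cells and on another array count there as not lower.

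Some of the genes lay next to each other. Among 14065 measured genes placed in RefSeq order, 11 pairs of neighbours were both in the set, 10 of them in the same direction, and these pairs held 21 genes. No matching count for another set of genes stands beside these, so whether 11 is many was not tested. Higher pairs were FOXP2 with MDFIC, TOX with TOX-DT, ATXN1 with ATXN1-AS1, EBLN2 with PDZRN3, and FAM111B with FAM111A-DT. Lower pairs were COL4A1 with COL4A2, OLR1 with TMEM52B, EDAR with SH3RF3, and HOXD-AS2 with HOXD8 and with HOXD4. In the remaining pair on chromosome 14, NRXN3 was higher and ADCK1 lower. Where a divergent or antisense transcript is a neighbour, the array probes may read overlapping transcripts, which was not tested. Chromosome 2 held 10 of the 72 lower and 4 of the 72 higher genes, where 6.53% of measured genes lie on it. The lower genes of chromosome 2 include the neighbours HOXD4, HOXD8 and HOXD-AS2, HOXD10, and EDAR with SH3RF3. Chromosome 4 held 9 of the higher and 6 of the lower genes, with 3.67% of measured genes. Chromosome 8 held 8 higher and 5 lower with 3.54%, and chromosome 13 held 3 higher and 4 lower with 1.78%. Others held less than their share, as chromosome 1 with 5 higher and 2 lower at 9.86%. These chromosomes were picked after the counts were seen.

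Promoter windows were matched for 56 higher and 54 lower genes and for 11330 measured genes. The median G and C content was 61.8% for higher genes, 68.0% for lower genes and 65% for all. The observed over expected ratio of CpG had medians of 0.658 for higher genes, 0.857 for lower genes and 0.824 for all. GGGCGG on either strand stood in 44.6% of the higher, 70.4% of the lower and 67.3% of all windows. TATAAA, the TATA box, stood in 12.5% of higher, 9.26% of lower and 6.44% of all windows. CACCTG, an E-box form bound by ZEB and SNAI factors, stood in 23.2% of higher, 9.26% of lower and 18.7% of all windows. ACAAAG stood in 17.9% of higher, 20.4% of lower and 10.97% of all windows, and TGACTCA, the AP-1 site, in 1.79%, 3.70% and 3.02% of the same groups. These are counts of letters in windows of 300 bases and none was tested.

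The 2-fold limit passed close to many genes. Just inside it on the higher side were C2orf15 at 2.004-fold, KLRC3 at 2.03-fold and ZBTB18 at 2.03-fold above the nearest array. Just outside were FZD4 at 1.997-fold, AHRR at 1.99-fold and SYBU at 1.99-fold. On the lower side EDAR at 2.003-fold, MAP6D1 at 2.01-fold and RET at 2.02-fold below the nearest array were inside. LINC01193 at no less than 1.98-fold, DNASE1 at 1.97-fold and MYZAP at 1.96-fold were outside.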

How the data were processed

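Each of 4 subpopulations had 1 array, and its values are deposited linear intensity values, 1 for each probe set. Per the submitters' processing notes the tool was MAS5, whose version is not given in the sources used here. Deposited intensities had a mean of 500.1 on each array after leaving out 2% of probe sets at each end. Detection calls and scan dates were not used here.

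Of 54675 probe sets, 62 were controls, 41097 had 1 gene symbol, 1801 had several and 11777 were unnamed in the platform annotation. A gene was represented by whichever of its single-symbol probe sets had the highest mean log2 signal. Signals below the floor, the 50th percentile of non-control probe sets on an array, were raised to it. A pair of arrays both at the floor had a difference of 0. A fold against an array at the floor is a lower bound, written "at least". Gene order and promoter windows came from RefSeq (GRCh38.p14), which matched 41043 probe sets.

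With 1 array per subpopulation no test was possible, and precision is limited by having so few arrays. The counting procedure was tested on simulated data. The members and the gene lists were chosen with earlier results of these data known. Named by rule were SOX2, CDH1, PROM1 and the cell type markers. The rule also took the 15 genes of each direction with the largest smallest difference, the 8 with the largest departure from additivity, up to 4 members of each list and the 3 genes on each side of the 2-fold limit. Other genes named were chosen after their values were seen, among them SMAD1, FERMT2, BBX, TOX-DT, SGMS2, UGT8, SPHK1, COL9A3, FBN3, CT83, HOXD-AS2, NR4A3 and RND3. The alternatives tried were 2 other scalings (quantile normalization and equal array medians), other floors (none, the 25th and the 65th percentile) and other fold limits (1.5-fold and 3-fold). Further ones averaged all probe sets of a gene, dropped those with an ID marking them as shared, or used 2 of the other 3 arrays. The software was matplotlib 3.10.9, scipy 1.17.1, pandas 2.3.3, numpy 2.4.6 and Python 3.11.15.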

Additional observations from a re-analysis of the deposited data

Results flagged for a closer look

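In 8 of the 144 genes the CD133 difference ran in opposite directions in the 2 E-cadherin states, by at least 2-fold each way. Only the 144 genes were searched for this, so there is no count over all measured genes to set beside the 8. With 1 array per subpopulation these differences were not tested. OLR1 had a log2 difference of CD133-high over CD133-low cells of -3.73 where E-cadherin was high and 1.77 where it was low. MME had -1.89 and 2.75, TMEM52B -1.51 and 2.61, and SKIDA1 -1.51 and 2.10 in the same order. For these 3 genes the first value is a bound, since E+CD133+ cells were at the floor. EID3 had -1.06 with E-cadherin high and 1.25 with it low. NR4A3, an orphan nuclear receptor, had -1.11 and 1.06, and RND3 had -1.04 and 1.10. MDFIC alone ran the other way, with 1.40 and -2.05 in the same order of E-cadherin states.

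The E-cadherin difference ran in opposite directions in 2 genes, also not tested. Here too the rule fixed the CD133-high pair. In CD133-low cells E-cadherin-high was at least 2-fold above E-cadherin-low for 1.39% of lower genes and 2.87% of all measured genes. It was at least 2-fold below for 1.39% of higher genes and 2.63% of all measured genes. SLAIN1, a microtubule-binding protein gene, had a log2 difference of E-cadherin-high over E-cadherin-low cells of 1.25 when CD133 was high and -1.11 when it was low. OLR1 had -4.47 with CD133 high and 1.02 with CD133 low.

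Probe sets without a gene symbol were not used above. Of 4587 of them above the floor on at least 1 array, 13 were higher and 18 lower in E+CD133+ cells than on each other array by at least 2-fold. The probe set with the largest of these smallest differences, on raised signals, read 661 in E+CD133+ cells, against 65.5 in E-CD133+ cells, with the E+CD133- and E-CD133- arrays at the floor. It was at least 10.1-fold higher.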

How the results depend on the processing

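No paired analysis was possible because each subpopulation has 1 array and the labels give no replicate numbers. The 72 higher and 72 lower genes became 74 and 58 under quantile normalization, of which 70 and 57 were shared, and 61 and 51 without probe sets marked as shared. They became 110 higher and 42 lower with equal array medians, a split that moved with the median of all genes, which shifted by 0.12 on the log2 scale against E-CD133+ cells. Counts were 401 and 930 with no floor, 241 and 413 with a floor at the 25th percentile, and 50 and 30 with a floor at the 65th. Counts were 273 and 247 at 1.5-fold, 19 and 10 at 3-fold, and 44 and 41 when all probe sets of a gene were averaged. Leaving out the E-CD133+ array gave 397 and 239, leaving out E+CD133- gave 144 and 133, and leaving out E-CD133- gave 99 and 108, each by a rule with fewer arrays to pass. MAP6D1 turned to 0.13 on the log2 scale without shared probe sets. Of 65 members named by rule, 16 stayed at least 2-fold under every alternative that gave them a value, 11 higher and 5 lower. These were SOX2, OLR1, DKK1, FAT1, HOXD8, AGR3, CALCRL, CHRDL1, DRAM1, FSTL5, KLRC3, LRIG3, MDFIC, SLAIN1, TMEM125 and TOX. With averaged probe sets 33 of the 65 fell below 2-fold, COL4A1, HOXD10, LGR4, LMO7, FOXA2 and FOXP2 among them, and under the floor at the 65th percentile 26 did, COL4A2, HOXD4 and MME among them. Signals near the floor limit the dim genes, and the cause of other changes was not tested.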
